A study of Mus musculus with 20 samples.

Results

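Fetal and imprinted liver growth genes are described here as 10 genes, Afp, H19, Igf2, Gpc3, Dlk1, Meg3, Peg3, Mest, Plagl1 and Cdkn1c. Every non-control probe whose gene name in the array files is 1 of these symbols was taken, which gave 20 of the 41174 probes on the array. The members are 10 of the 20731 genes that those probes name. After the filter on dim probes, 13 of these probes and 9 of the 10 genes remained, among 17194 rows tested in all. A row is a gene at its brightest kept probe, or a probe without a symbol. Dlk1 did not pass.

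The livers came from male C57BL/6J mice, an inbred strain, which ate a diet with 60% of its energy from fat from weaning until the age of 6 weeks, when the liver was removed. By the labels 10 mice are non-responders, which resist diet-induced obesity, and 10 responders, which are susceptible to it, so the groups share strain, sex, diet and age. No genotype, allele or agent sets them apart in the labels, and no animal of the series ate a control diet. Each liver was hybridised to 1 single-colour Agilent array, and since the labels name no animals, the tests speak of the spread among these livers only.

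Fetal liver cells grow and divide quickly, and they secrete alpha-fetoprotein in place of much of the albumin of the adult. Within weeks of birth the liver shuts off Afp, H19, Igf2 and other growth genes, and the extent of this shutdown differs between mouse strains. Most of the genes described here are imprinted, which means that the copy from only the mother or only the father is read. Paternally read genes such as Igf2, Dlk1, Peg3, Mest and Plagl1 mostly promote growth or act in fetal tissues, while the maternally read Cdkn1c, H19 and Meg3 mostly restrain it. Several of them are also made in muscle and mesenchymal cells.

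Levels are given as log2 of the processed signal minus log2 of the array's 75th percentile, so that 0 is that percentile and 1 unit is a doubling. They are compared between livers for the same probe, never between probes. The arrays lay in 2 slide series, scanned on different days. Both groups were present in each, with 6 non-responders beside 4 responders in the first and the reverse in the second. Between 55.8% and 71.2% of the spots of an array were well above background and none was saturated. Of the 8 hepatocyte markers, 7 were measured, and their mean level lay between 7.36 and 8.70 in every liver. All differences are responder minus non-responder from limma with the slide series in the fit, followed by the standard error (SE). In a whole liver, fewer cells of a type and less RNA per cell cannot be told apart.

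The members that are long noncoding RNAs, H19 and Meg3, are shown by their probes, because H19 had the widest range between livers and the probes of Meg3 gave unequal readings. The sequences are those of the array files, 5′ to 3′, with positions on the mm9 build.
H19 probe A_51_P142196: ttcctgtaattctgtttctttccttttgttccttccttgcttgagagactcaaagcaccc
H19 probe A_52_P571350: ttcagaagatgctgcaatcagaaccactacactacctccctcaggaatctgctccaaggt
Meg3 probe A_52_P391505: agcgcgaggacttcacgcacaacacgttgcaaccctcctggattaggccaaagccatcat
Meg3 probe A_52_P99341: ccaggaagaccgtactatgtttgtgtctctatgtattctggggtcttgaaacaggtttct
Meg3 probe A_52_P196568: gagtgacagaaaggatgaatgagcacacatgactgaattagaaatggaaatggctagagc
Meg3 probe A_51_P109649: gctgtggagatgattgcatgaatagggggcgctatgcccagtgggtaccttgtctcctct
Meg3 probe A_51_P455997: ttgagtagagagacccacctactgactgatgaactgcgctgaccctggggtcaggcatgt

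Both H19 probes lie on the minus strand of chromosome 7. A_51_P142196 is placed at chr7:149761769-149761828. A_52_P571350 is placed at chr7:149762018-149762165, a span of 148 bases for a probe of 60, so its letters are not contiguous in the genome. Both were well above background on all 20 arrays and followed each other over the livers (r = 0.998 after the group and slide series means were removed). The signal of A_51_P142196 was a median of 16.5 times the local background, with a range from 3.22 to 99.6 times. H19 RNA was therefore measured in every liver, at very different levels.

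The 5 Meg3 probes lie on the plus strand of chromosome 12 and did not give the same reading. A_52_P391505 (chr12:110787974-110796459, a span of 8486 bases) and A_51_P455997 (chr12:110809678-110809737) carry the accession NR_027652, and both were well above background on all 20 arrays. The 3 probes between them carry the accession NR_003633 and were near background. A_52_P99341 (chr12:110797172-110797231) was well above background on 0 arrays, A_52_P196568 (chr12:110799558-110799617) on 1, and A_51_P109649 (chr12:110800898-110800957) on 3. Their GC content was 43.3%, 41.7% and 55.0%, against 55.0% for each of the detected probes. The detected probes followed each other over the livers (r = 0.928). The signal of A_51_P455997 was a median of 11.5 times the local background. Which transcript forms the 3 dim probes would report was not tested.

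Afp encodes alpha-fetoprotein, the main serum protein of the fetus and the classic marker of the fetal hepatocyte. Its probe (chr5:90937781-90937840, 10 spots on each array) was well above background in all 20 livers, at a median of 10.2 times the local background. In non-responders the level ran from -2.53 in non-responder 5 through a median of -1.29 to -0.62 in non-responder 4. In responders it ran from -1.76 through a median of -1.16 to -0.70. The groups overlapped over the whole range of the responders, and the most extreme livers on both sides were non-responders. Over all livers Afp spanned 3.76-fold, while the 10 spots of an array differed by an SD of 0.095. The group difference was 0.11 (SE 0.21, adjusted p = 0.907 by limma with Benjamini-Hochberg adjustment). It was 0.0029 without non-responder 5 and 0.19 without non-responder 4.

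H19 is read from the maternal chromosome beside Igf2, and its RNA is abundant in fetal liver and muscle. In non-responders its level ran from -3.09 in non-responder 9 through a median of 0.03 to 2.04 in non-responder 7. In responders it ran from -3.76 in responder 8 through a median of -1.83 to 1.98 in responder 2. The most and least abundant livers were 55.9-fold apart, and each group held livers from both ends. The responder median minus the non-responder median was -1.86, and the difference in the fit was -0.96 (SE 0.77, 95% interval from -2.56 to 0.65, adjusted p = 0.775 by limma). Without non-responder 7 it was -0.49, and without responder 2 it was -1.34. The second probe gave a difference of -1.05 (SE 0.74).

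Igf2, the paternally read fetal growth factor that signals through the IGF1 and insulin receptors, was read by 2 probes. Probe A_51_P516826, with 10 spots, was well above background on all 20 arrays at a median of 2.92 times the local background. The array annotation places it at chr7:149836673-149836709, which covers 37 of its 60 bases. Its non-responder levels ran from -4.49 through a median of -3.05 to -2.0 in non-responder 7. In responders the level ran from -4.98 in responder 6 through a median of -4.21 to -2.49 in responder 2. Most responders lay in the lower part of a shared range. The livers spanned 7.87-fold, and the difference was -0.60 (SE 0.36, 95% interval from -1.34 to 0.15, adjusted p = 0.702 by limma). Without non-responder 7 it was -0.36, and with normexp background correction 0.11. That correction treated the arrays unequally: it left the spot median of responder 1 at 3477, against 39.7 by plain subtraction. The other Igf2 probe, A_51_P516833 (chr7:149837115-149837174), was well above background on 6 arrays and was not tested. Non-responder 7 was the highest liver on it too.

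Gpc3 is an X-linked cell surface proteoglycan that restrains growth and is a marker of fetal and transformed hepatocytes. Its probe (chrX:49625740-49625799) stood at a median of 3.10 times the local background and passed on all 20 arrays. Non-responders ran from -4.32 in non-responder 10 through a median of -3.22 to -2.52 in non-responder 7. Responders ran from -4.51 in responder 6 through a median of -3.70 to -3.05 in responder 7. The groups overlapped over most of a 3.98-fold range, with a difference of -0.36 (SE 0.21, 95% interval from -0.80 to 0.08, adjusted p = 0.696 by limma). That adjusted p was the lowest among the members. Without non-responder 7 the difference was -0.21, and with normexp background correction 0.21.

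Dlk1, a membrane protein of fetal liver cells related to the NOTCH ligands, lies beside Meg3 on chromosome 12 and is read from the paternal copy. Neither of its probes passed the filter. A_52_P177324 (chr12:110698428-110698487) was well above background on 3 arrays and A_51_P135618 (chr12:110698667-110698703) on 1. The single liver above background on the latter was a non-responder, and the highest liver on both probes was non-responder 7. No group difference is given for Dlk1, since on most arrays these probes were not well above background.

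Meg3, the maternally read RNA of the same locus, gave levels on A_51_P455997 from -1.75 through a median of -1.03 to 0.36 in non-responders. Non-responder 7 was again the highest. Responder levels ran from -1.78 in responder 9 through a median of -1.11 to 0.18 in responder 2. The groups covered nearly the same 4.41-fold range, and the difference was 0.06 (SE 0.30, adjusted p = 0.967 by limma). Probe A_52_P391505 gave 0.30 (SE 0.30).

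The remaining members encode nuclear regulators and a putative enzyme. Peg3, a zinc finger protein, was measured with 3 probes. A_51_P206037 (chr7:6660440-6660499) passed on 20 arrays and A_52_P235861 (chr7:6658774-6658833) on 19, both under the accession NM_008817, and they followed each other with r = 0.820. A_52_P1131620 (chr7:6674944-6675002), which carries an Ensembl transcript accession, passed on 0. On the brightest probe non-responders ran from -3.88 through -3.25 to -2.20 and responders from -3.63 through -3.09 to -1.97 (lowest, median and highest). The livers of the groups were intermingled, and the difference was -0.09 (SE 0.22).

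Mest, a protein of the alpha/beta hydrolase family read from the paternal copy, had 1 probe (chr6:30698279-30698338), well above background on all arrays. Its levels ran from -2.54 through -1.40 to -0.15 in non-responders and from -2.53 through -1.28 to -0.60 in responders. The lowest livers of the groups were almost equal, and the difference was -0.02 (SE 0.30, adjusted p = 0.987 by limma). Mest spanned 5.24-fold over all livers.

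Plagl1, a zinc finger transcription factor that sits high in a network of imprinted genes, was read by A_52_P532456 (chr10:12851280-12851339) on all 20 arrays. Non-responder 10 stood at 0.96, while the median of its group was -0.13 and the highest responder reached 0.26. Non-responder 10 was also the highest liver for Mest. The difference was -0.11 (SE 0.14), and it was 0.04 without that liver. The dimmer probe A_51_P432034 (chr10:12849470-12849529), detected on 10 arrays, gave 0.17 (SE 0.23) and followed the first with r = 0.664. In this fit the direction of Plagl1 thus differed between the probes. In the authors' deposited values Plagl1 was read by the dimmer probe and was lower in responders, so its direction also differed with the processing.

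Cdkn1c, the inhibitor of cyclin-dependent kinases p57, varied least. Its probe (chr7:150644753-150644812) gave levels from -0.41 through 0.07 to 0.36 in non-responders and from -0.78 in responder 8 through -0.19 to 0.37 in responders. The lowest liver was a responder while the upper ends of the groups met. The livers spanned 2.22-fold, with a difference of -0.19 (SE 0.13, adjusted p = 0.740 by limma).

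**Figure D1:**
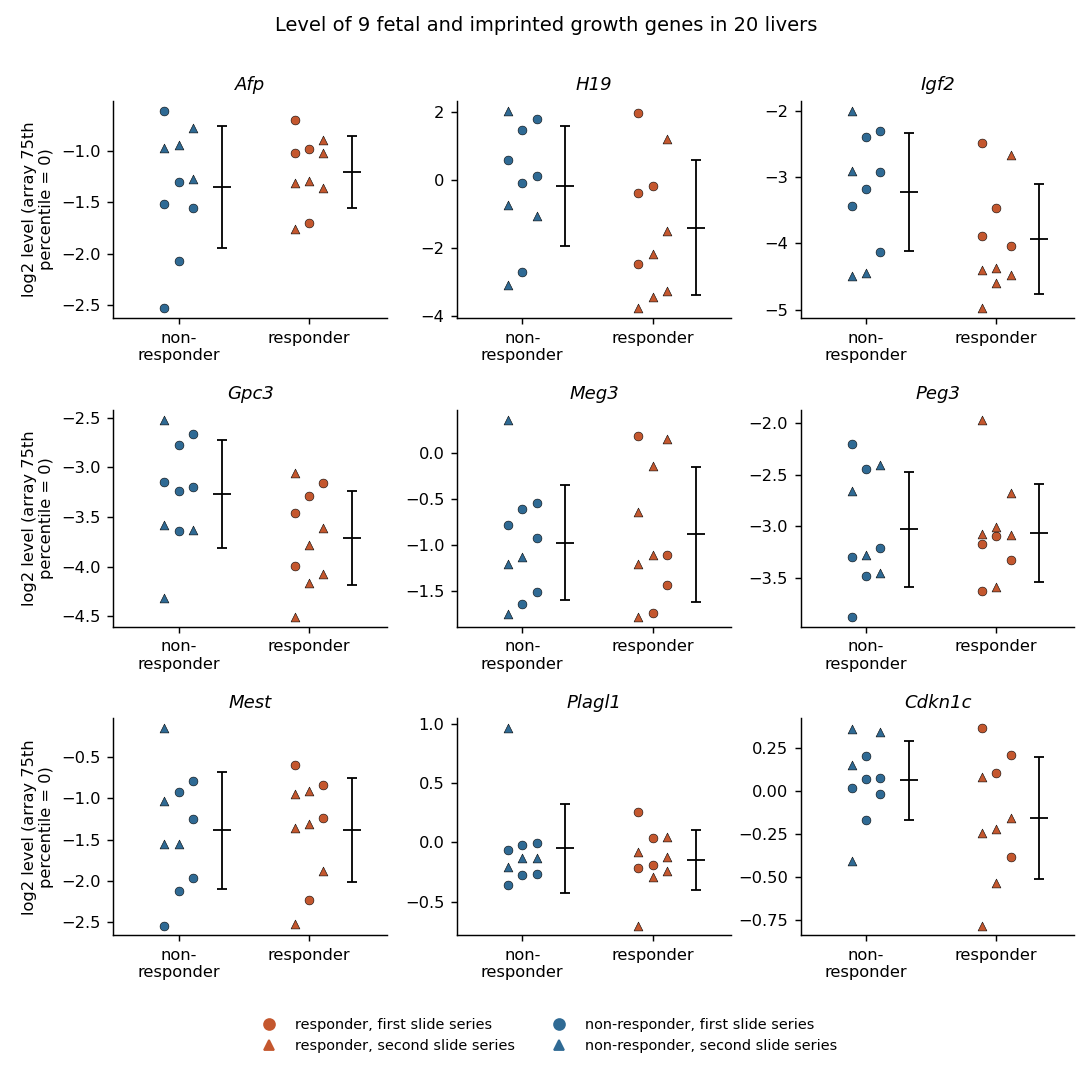
Level of each of the 9 measured genes in 20 livers on the log2 scale of the array's 75th percentile. Each point is 1 liver, coloured by group with the shape giving the slide series, and the bar beside each group is its mean with SD (n = 10). The groups overlap in all 9 panels. H19 runs from -3.76 to 2.04, and non-responder 10 stands apart from its group for Plagl1, at 0.96.

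No measured member passed the threshold between responders and non-responders. In the fit over all 17194 rows, 0 of the 9 members passed an adjusted p of 0.05, and the share over all rows was also 0%. At an unadjusted p of 0.05 the members passed 0 times, against 7.99% of all rows. With 1 liver left out, Igf2 passed the unadjusted limma threshold without responder 2 (p = 0.047) or responder 7 (p = 0.037), and Gpc3 without responder 7 (p = 0.039) or non-responder 10 (p = 0.027), and none passed after adjustment. In the same limma fit 7 of the 9 members were lower in responders, where 51.1% of all rows were lower. The median difference was -0.11 over the members and -0.003 over all rows. With normexp background correction, which treated the arrays unequally, 3 of the 9 were lower.

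The group difference was also read within each slide series. Igf2 differed by -0.41 and -0.78 in the first and second series, H19 by -0.46 and -1.45, and Gpc3 by -0.36 and -0.36, all lower in responders. The other 6 members had opposite signs in the series. The difference of Afp was 0.50 and then -0.28, and that of Mest 0.37 and then -0.42, in series order. No member passed the test of the difference between series: 0 of 9 passed an unadjusted p of 0.05, against 9.68% of all rows, and 0 rows (0%) passed after adjustment. The lowest unadjusted p values were 0.063 for Afp, 0.075 for Cdkn1c and 0.087 for Plagl1. Between the series themselves, 0 of the 9 members differed at an adjusted p of 0.05, while 30.3% of all rows did.

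**Figure D2:**
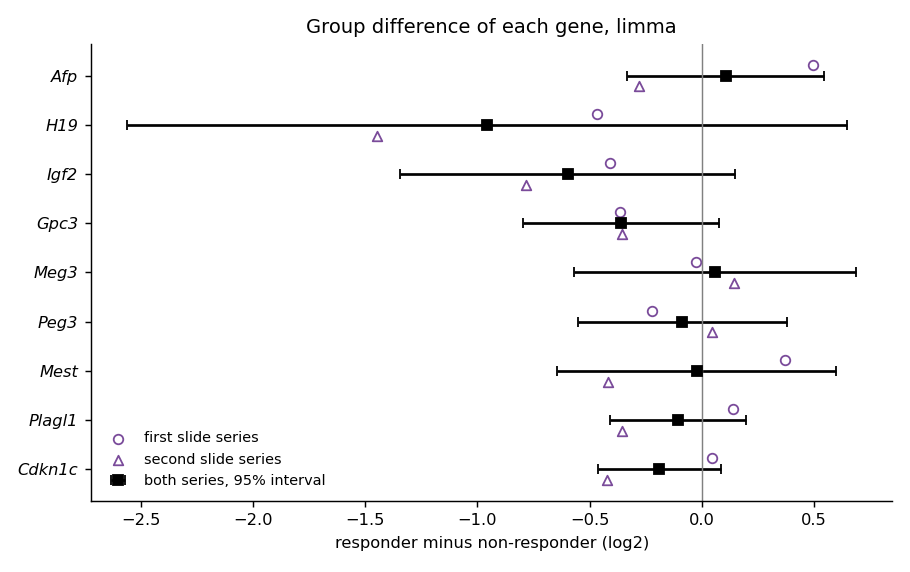
Difference between responders and non-responders for each gene, in log2 units from limma. Squares with bars give the estimate and 95% interval over both slide series (10 livers a group), and open circles and triangles give the first and second series. Every interval includes 0, and 3 of the 9 genes have the same sign in both series.

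The members stood out from most rows by how much they varied between livers of a group. The residual SD of the fit was 1.79 for H19, more than that of 99.2% of all rows, and 0.83 for Igf2, more than that of 96.5%. Meg3 had 0.70, Mest 0.69, Peg3 0.52, Afp 0.48 and Gpc3 0.48. The steadiest members, Plagl1 at 0.33 and Cdkn1c at 0.30, still lay above the median of all rows, 0.23. All 9 members were above that median, which is a description of rows of unequal brightness and not a test. For Plagl1 this rested on 1 liver: without non-responder 10 its residual SD was 0.20, below the median taken with every liver. The spread within responders was set against that within non-responders, and no member passed. A limma fit to the absolute deviations gave 0 of 9 members at an unadjusted p of 0.05, against 4.16% of all rows, and 0% of rows after adjustment.

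Over the 20 livers, members moved together in separate sets. Of the 36 pairs of measured members, 4 passed a Benjamini-Hochberg adjusted p of 0.05 by permutation of livers within group and slide series, with those means removed. H19 and Igf2, neighbours on chromosome 7, had r = 0.89 and rho = 0.82 (p = 1e-05, the smallest that 100000 permutations give, adjusted p = 0.00036). Without the 2 livers farthest out on H19, r was 0.84, and within the slide series it was 0.92 and 0.88. With normexp background correction, which treated the arrays unequally, the call was lost, at r = 0.46 (permutation adjusted p = 0.209). Livers rich in H19 were rich in Igf2 in both groups.

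Gpc3 joined this set with less certainty. H19 and Gpc3 had r = 0.71 (permutation adjusted p = 0.027, 0.60 without the 2 farthest livers), with rho = 0.60 at an adjusted p of 0.090 by permutation. Igf2 and Gpc3 had r = 0.67 (permutation adjusted p = 0.057), which was 0.40 without the 2 farthest livers. The call of H19 and Gpc3 was lost without non-responder 6 or 7 or responder 7 or 10, at a permutation adjusted p of 0.071, 0.102, 0.104 and 0.078. That of Igf2 and Gpc3 was gained without non-responder 10 (r = 0.87, permutation adjusted p = 0.0011) or non-responder 2 (0.69, adjusted p = 0.049). Meg3 had r = 0.58 with H19 and 0.55 with Igf2, and neither passed after adjustment (permutation adjusted p of 0.099 and 0.143). Without responder 6, H19 and Meg3 passed, at r = 0.70 (permutation adjusted p = 0.033).

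Mest and Plagl1 were another pair past the threshold, with r = 0.71 and rho = 0.71 (permutation adjusted p = 0.0086 and 0.024). Without the 2 farthest livers r was 0.66, and within the series it was 0.63 and 0.86. The call was lost with normexp (permutation adjusted p = 0.209) and with plain background subtraction (permutation adjusted p = 0.067). Read with the mean of both Plagl1 probes, r was 0.55 (permutation adjusted p = 0.097). Meg3 and Mest ran in opposite directions, with r = -0.60 (permutation adjusted p = 0.065), which passed without non-responder 5 (0.038) or non-responder 10 (0.035). Mest had r = -0.16 with H19 and -0.06 with Igf2.

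Afp passed with none of H19, Igf2 and Gpc3. Its r was -0.13 with H19, -0.09 with Igf2 and -0.10 with Gpc3. The member it tracked most was Cdkn1c, inversely, with r = -0.53 (permutation adjusted p = 0.027, rho = -0.52 at an adjusted p of 0.113). Its call was lost without non-responder 4 or 5 or responder 8 (permutation adjusted p of 0.077, 0.062 and 0.065). Without the slide series term that r was -0.30 (permutation adjusted p = 0.363).

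**Figure D3:**
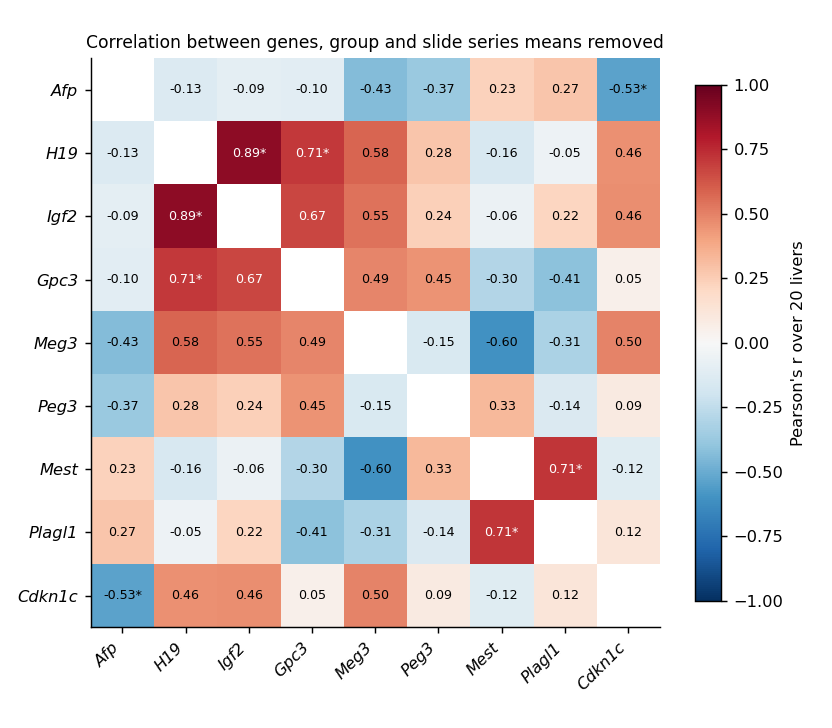
Pearson's r between the 36 pairs of measured genes over 20 livers, after the mean of each group and slide series was removed. Red is positive and blue negative, and an asterisk marks the 4 pairs with a permutation adjusted p under 0.05. H19, Igf2, Gpc3 and Meg3 form a block of positive values from 0.49 to 0.89, and Mest pairs with Plagl1 at 0.71.

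The named genes most like each member over the livers differed from member to member. These genes were picked by their r in the same livers, so that r is a description and no test. For H19 they were Perm1 (r = 0.98), a regulator of muscle mitochondria, the ankyrin gene Ank1 (0.98), and Rpl3l (0.98), the ribosomal protein of striated muscle. In all, 283 of 17060 rows without missing values had r above 0.8 with H19, against 255 for Igf2, 134 for Gpc3 and at most 60 for any other member. The genes most like Igf2 were Fbln2, Actc1 and Plpp7 (0.95, 0.95 and 0.95), with Actc1 the actin of heart muscle and Fbln2 a matrix protein. For Gpc3 they were Nkain4, Sulf1 and Igfbp6 (0.92, 0.92 and 0.91), of which Sulf1 edits heparan sulfate and Igfbp6 binds IGF2. Meg3 followed Tnnc1, Lingo4 and Zfp106 (0.89, 0.87 and 0.87).

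The members outside that set followed other genes. Afp was most like Nudt2, Snapc5 and Hscb (0.93, 0.89 and 0.87). Mest was most like Itga8, an integrin subunit of stellate cells, with r = 0.93, and then Eva1a (0.92) and Slc39a8 (0.90). With the mean of the stellate cell and fibroblast markers described below, however, Mest had r = 0.05. Plagl1 followed Erlin2, Ecscr and Hmbox1 (0.87, 0.86 and 0.86), and Peg3 followed Hspb1, Tmem64 and Pcnx2 (0.87, 0.86 and 0.84). Cdkn1c had no close match, with Ltbp4, Rdm1 and Fads2 at 0.75, 0.74 and 0.73.

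Markers of other cell types moved with several members. Each of the 9 members was set against 9 marker lists and 2 array measures, 99 relations in all, and 4 passed an adjusted p of 0.05 by permutation. Igf2 followed the mean of the 13 stellate cell and fibroblast markers with r = 0.91 (permutation adjusted p = 0.0050), and H19 followed it with r = 0.82 (permutation adjusted p = 0.014). H19 also followed the 9 measured adipocyte markers, r = 0.71 (permutation adjusted p = 0.049). Peg3 ran against the 4 measured erythroid markers, r = -0.77 (permutation adjusted p = 0.017). Mest had r = 0.67 with the macrophage markers (permutation adjusted p = 0.052) and Gpc3 0.69 with the stellate markers (permutation adjusted p = 0.070). With the adipocyte markers Igf2 had r = 0.65 (permutation adjusted p = 0.070) and Gpc3 0.59 (permutation adjusted p = 0.159).

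These lists differed in level between livers and partly between groups. Of the 13 stellate and fibroblast markers 12 were lower in responders and 5 passed an unadjusted p of 0.05, with the list mean highest in non-responder 7, the liver also highest in H19, Igf2, Gpc3 and Meg3. Over all rows 51.1% were lower and 7.99% passed that unadjusted p. Of the 9 adipocyte markers 7 were lower, with a median difference of -1.36, and 6 passed. Of the 13 measured cell cycle genes 12 were lower and 8 passed, and of the 11 pancreatic acinar markers 10 were lower, with a median difference of -1.04, and 0 passed. After Benjamini-Hochberg adjustment in limma 0 genes of these 4 lists passed. No member passed with the cell cycle or acinar list over the livers, where the highest r was 0.59 for Mest with the cell cycle genes (permutation adjusted p = 0.160) and 0.59 for Gpc3 with the acinar markers (permutation adjusted p = 0.109). The part of these cell types in the levels of the members was not tested.

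Striated muscle genes led the list of genes like H19, so a list of 21 of them was written after that was seen and is given as a description only. All 21 were measured, and all were well above background on 13 of the arrays, with at least 9 on any array. Their mean ran from -5.68 in responder 6 through a median of -0.01 to 3.81 in responder 2 among responders. Among non-responders it ran from -4.86 in non-responder 9 through a median of 2.27 to 3.82 in non-responder 7. In responder 6 and non-responder 9 only 9 of the 21 genes were well above background, so the low means rest mostly on probes near background and no fold is given. Livers from both groups lay at each end. Myh4, the myosin of fast muscle fibres, reached 5.07 and was well above background on 17 arrays.

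H19 followed this list over the livers with r = 0.93, and within the slide series with 0.99 and 0.94. Of the 21 genes 20 had r above 0.8 with H19, the exception being Ryr1 at 0.12. Igf2 had r = 0.77 with the list mean, Gpc3 0.72, Meg3 0.41, Peg3 0.41 and Cdkn1c 0.42. Mest stood at -0.17, Plagl1 at -0.20 and Afp at -0.08. In responders 20 of the 21 muscle genes were lower, with a median difference of -1.14, and 0 passed an unadjusted p of 0.05. Over all rows 51.1% were lower and 7.99% passed. The part of muscle RNA in the levels of H19, Igf2 and Gpc3 was not tested.

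**Figure D4:**
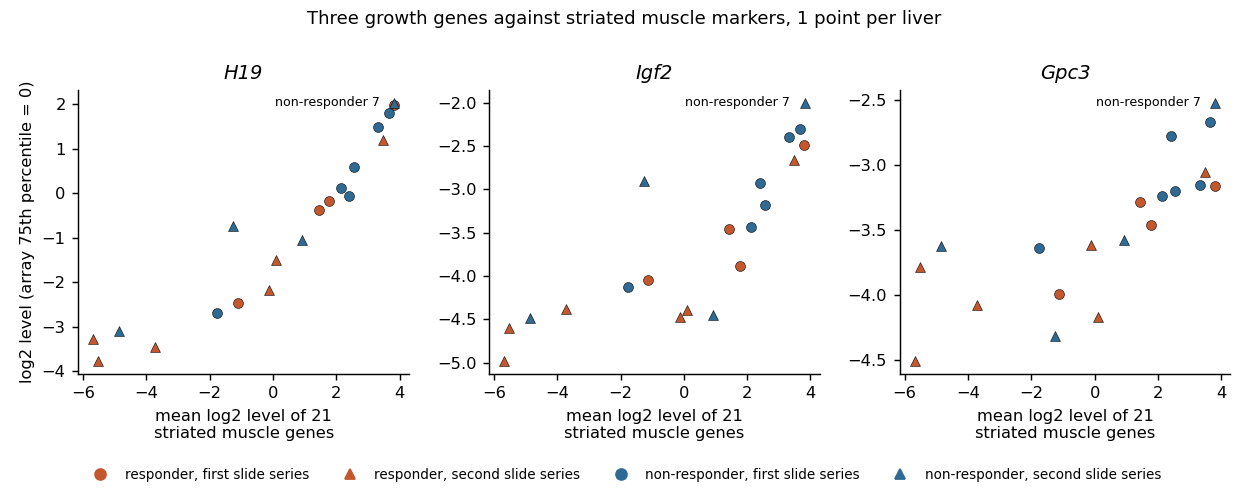
Log2 level of H19, Igf2 and Gpc3 against the mean log2 level of 21 striated muscle genes, 1 point per liver, coloured by group with the shape giving the slide series. H19 rises with the muscle mean (r = 0.93 with group and series means removed), and non-responder 7 is at the upper end in all 3 panels. At the low end H19 is flat: responders 6 and 9 have muscle means of -5.68 and -3.71 and H19 levels of -3.26 and -3.44.

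With the muscle mean as a term in the fit, the residual SD of H19 was 0.68 in place of 1.79, that of Igf2 0.54 and that of Gpc3 0.35. The list was written after muscle genes were seen to follow H19 in these livers, so the fall for H19 is a description and no test. The differences were then -0.33 (SE 0.30) for H19, -0.36 (SE 0.24) for Igf2 and -0.23 (SE 0.15) for Gpc3. With the stellate and fibroblast mean instead, H19 differed by 0.39 and Igf2 by 0.092, the opposite direction, and Gpc3 by -0.071 (SE 0.18). The residual SD with that mean was 1.07 for H19, 0.38 for Igf2 and 0.38 for Gpc3. Once the muscle mean was also removed, r was 0.75 between H19 and Igf2, 0.16 between H19 and Gpc3, and 0.26 between Igf2 and Gpc3. For Mest and Plagl1 it was 0.70, close to the value without that step. With the stellate and fibroblast mean removed instead, H19 and Igf2 had r = 0.61 and no longer passed (permutation adjusted p = 0.053). In that setting r was 0.35 between H19 and Gpc3, 0.13 between Igf2 and Gpc3, and 0.73 between Mest and Plagl1.

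**Figure D5:**
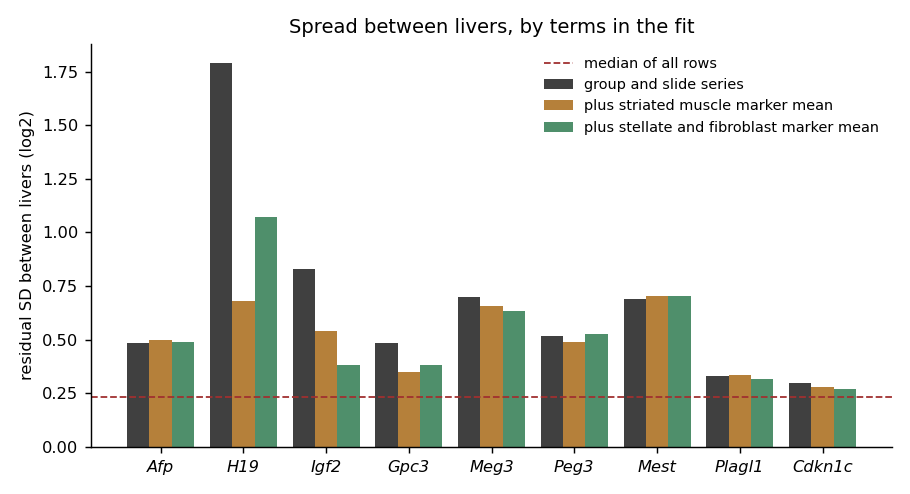
Residual SD between livers, in log2 units, for the 9 genes with group and slide series in the fit, and with the mean of the striated muscle or of the stellate and fibroblast markers added. The dashed line is the median of all rows, 0.23. H19 drops from 1.79 to 0.68 with the muscle mean, while Mest stays at 0.69 to 0.70 and Afp at 0.48 to 0.50. Igf2 drops from 0.83 to 0.54 with the muscle mean and to 0.38 with the stellate and fibroblast mean. The muscle list was written after muscle genes were seen to follow H19 in these livers.

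The small set of mesothelial markers, added in the same way, gave its highest value with Gpc3. Of 9 listed genes 6 were measured, and their mean had r = 0.85 with Gpc3, 0.62 with H19 and 0.52 with Igf2.

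Genes that act with the members were read from 5 further lists, where 0 genes passed after Benjamini-Hochberg adjustment in limma and 0% of all rows did. The counts at an unadjusted p of 0.05 below stand against 7.99% of all rows, and those of lower genes against 51.1%. Of 59 other imprinted genes 40 were measured, 21 higher and 19 lower in responders, with a median difference of 0.02. Impact, an inhibitor of the kinase GCN2, and Kcnq1ot1, the noncoding RNA of the imprinted domain that holds Cdkn1c, passed the unadjusted threshold, at -0.24 (SE 0.09) and -0.24 (SE 0.09). Igf2r, the maternally read receptor that clears IGF2, differed by -0.05 (SE 0.06), Grb10 by -0.19 (SE 0.16), and the amino acid transporter Slc38a4 by -0.36 (SE 0.20). Nnat, present on 5 arrays of each group, differed by -0.53 (SE 0.26). As a list, other imprinted genes had a median residual SD of 0.23, the same as all rows to 2 decimals.

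Regulators that shut off Afp and H19 after birth, with the factors that keep imprints, made up a list of 34, of which 30 were measured. In it 20 genes were higher and 10 lower, and 3 of 30 passed the unadjusted threshold, near the share over all rows. Zhx2, a repressor of Afp, H19 and Gpc3 in adult liver, was higher in responders by 0.34 (SE 0.13, p = 0.018, adjusted p = 0.544 by limma), from a probe detected in 8 responders and 7 non-responders. Zbtb20, another repressor of Afp, differed by -0.18 (SE 0.15). Foxa3, a liver transcription factor, differed by -0.21 (SE 0.10). Over the livers Zhx2 had r = 0.07 with Afp, 0.30 with H19 and 0.47 with Gpc3, and Zbtb20 had r = -0.19 with Afp. Of the 18 relations of these repressors with the members, computed after the group values were seen, Zbtb20 with Mest was the closest, at r = -0.63 (permutation adjusted p = 0.134).

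Among the partners of IGF2, Igfbp1 had the widest difference of the genes named from these lists. Of 24 genes of IGF2 signalling 20 were measured, 13 lower and 7 higher in responders, and 5 passed the unadjusted threshold. Igfbp1, a binding protein that limits access of IGFs to their receptors and rises with fasting, differed by -1.56 (SE 0.35, p = 0.000238, adjusted p = 0.346 by limma). It ran in the same direction in both slide series, at -2.37 and -0.74. Igfbp2, another binding protein, differed by -0.43 (SE 0.13), Igfals, which carries IGFs in the blood, by 0.37 (SE 0.12), and the receptor Igf1r by -0.27 (SE 0.10). Igf2bp3, a fetal RNA-binding protein of the Igf2 message, differed by -0.35 (SE 0.23).

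Partners of Gpc3, Dlk1 and Cdkn1c, a list of 33 glypicans, NOTCH genes and cell cycle inhibitors, had 25 measured, 11 higher and 14 lower. Ihh, a hedgehog ligand of the pathway that glypican-3 restrains, was higher by 0.78 (SE 0.31) and alone passed the unadjusted threshold. Cdkn2c differed by -0.17 (SE 0.10) and Hey1 by -0.23 (SE 0.16). Fetal and newborn liver genes that are not imprinted were the most uneven list. Of 32, 26 were measured, 19 lower and 7 higher in responders, with a median difference of -0.12 and a median residual SD of 0.50. Akr1c18, an aldo-keto reductase, differed by -1.08 (SE 0.33), the fetal hexokinase Hk2 by -0.98 (SE 0.42), and the adhesion molecule Vcam1 by -0.44 (SE 0.19), and 4 genes of the list passed the unadjusted threshold.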

How the data were processed

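The deposited values are linear spot intensities from Agilent Feature Extraction, background-subtracted and detrended within each array per the file headers (version 10.5.1.1 there, 9.1 per the submitters' processing notes). Flags for background, saturation and outliers come from the same software, per the file headers. For the authors' deposited table of intensities, no source used here gives the method. Here, log2 signals were scaled to each array's 75th percentile, outlier spots were dropped, spots of a probe averaged, and a probe kept if at least 5 arrays of a group showed it well above background (26156 probes). Symbols came from the RefSeq table of GRCm38.p6, used for names only. A missing value of a row (133 rows) was left out of its fit. Responders and non-responders were compared in limma 3.58.1 (R 4.3.3) with group and slide series (read from slide barcodes) as terms. Correlations used 100000 permutations in Python 3.11.15, two-sided, within group and series. Named genes were the members, up to 3 genes of lowest p per list, 8 fixed genes and the 3 genes most like each member. Peg10, 1 of the fixed genes, was not measured, and 1 gene that the rule names is not reported here. Members and lists were chosen with earlier results of these data known. In data simulated for the group comparison over 17194 rows, 70% of changes of 0.5 and 89% of changes of 1 on the log2 scale were called, and 8 unchanged rows were. The changed rows were drawn from all rows, whose median residual SD was 0.23, against 0.52 over the members. These percentages therefore do not tell how often such a change in a member would be called.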

Additional observations from a re-analysis of the deposited data

Results flagged for a closer look

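Plagl1 in non-responder 10, at 0.96, lay farther from the other 9 non-responders than the critical value for a group of 10 allows, with a gap of 0.735 of the range of the group. Chance marks about 1 in 20 groups this way. The rule was applied to each group for all 9 measured members, and this liver was the only one marked. The difference of Plagl1 was -0.11 with this liver and 0.04 without it. The same liver was the highest for Mest.

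Signal also appeared on member probes that were not tested. Igf2 probe A_51_P516833 was well above background on 6 of 20 arrays. Dlk1 probe A_52_P177324 passed on 3 arrays and A_51_P135618 on 1. Meg3 probes A_51_P109649 and A_52_P196568 passed on 3 and 1.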

How the results depend on the processing

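0 rows and 0 members passed the threshold in limma under every alternative run, with 401 rows (normexp) to 1831 rows (replicate block) at an unadjusted p under 0.05 against 1373. The number of members lower in responders was 7, and 5 to 7 with a liver left out. It was 7 with plain subtraction, quantile normalization and the deposited values (of 8 measured, with H19 and Plagl1 read by their dimmer probes). Detection on all arrays, slide as a random block, trended variance, the second series alone and the muscle covariate also gave 7. The number was 8 of 10 with no filter, 6 without the series term or with the mean of probes, and 5 in the first series alone. It was 3 with normexp, whose fit left 6 arrays, 4 of them responders, with a median over 1.5 times the plain median plus the offset of 50, and 3 with stellate markers as a covariate. The highest normexp median was 3477, in responder 1, where the plain median was 39.7. With normexp Igf2 was 0.11, Gpc3 0.21, Peg3 0.28, Mest 0.13, Nnat 0.29, Grb10 0.039, Igfals -0.043, Igf1r 0.061, Igf2bp3 0.0037 and Hey1 0.0602. In the first series alone Meg3 was -0.024, Mest 0.37, Plagl1 0.14, Cdkn1c 0.044, Cdkn2c 0.0017 and Hey1 0.064, and in the second Afp -0.28, Peg3 0.047 and Grb10 0.11. With the stellate covariate, added after the data were seen, H19 was 0.39, Igf2 0.092, Mest 0.072 and Plagl1 0.0029. Mest was 0.0030 without the series term and Plagl1 0.030 with the mean of its probes. With a liver left out, Meg3 ran from -0.12 to 0.25, Peg3 from -0.18 to 0.0035, Mest from -0.15 to 0.15 and Plagl1 from -0.17 to 0.043. With the replicate block, 0 rows were called, 6 members were lower, and Meg3 was -0.068, Peg3 0.038 and Mest 0.13. In the same limma fit H19 was -1.13 (p = 0.017), Igf2 -0.64 (p = 0.0086) and Gpc3 -0.32 (p = 0.0019). These were 3 of 9 members at an unadjusted limma p under 0.05, against 1831 of 17194 rows in that fit. The labels do not say whether equal numbers mark paired samples, and the values do not settle it. Correlations of same-numbered livers ran from -0.18 to 0.59, and 6 of 10 were above 0.1. In 3 of 10 pairs the responder correlated best with its own number.

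The number of member pairs past the threshold was 4, and 1 with plain background subtraction, 7 with no means removed, 1 and 0 in the first and second series alone, which have fewer livers, and 3 to 7 with a liver left out, 7 without responder 6. H19 and Igf2, H19 and Gpc3, Mest and Plagl1, and Afp and Cdkn1c lost their call with normexp, at a permutation adjusted p of 0.209, 0.578, 0.209 and 0.328. Plain subtraction also ended the last 3, at 0.104, 0.067 and 0.085. Igf2 and Gpc3, not called in the main setting, passed with normexp, at r = 0.93 (permutation adjusted p = 0.0011). Apart from the series alone, where fewer livers entered, the cause of these changes was not tested. Dim probes, such as those of Dlk1, limit what could be compared.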
